A study of Homo sapiens with 16 samples.

Results

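Of the 16 RNA-seq libraries in the series, 8 came from cells that carried 1 of 2 guide RNAs against KDM5C, and these were compared by guide. They were chosen by their labels: 4 libraries with sgKDM5C guide 4 and 4 with sgKDM5C guide 5, with 1 library of each guide in each of the clear cell renal cell carcinoma (ccRCC) lines 786-O, 769-P, CAKI-2 and A498. All cells received Cas9 and their guide from a lentivirus, and the libraries came from infected populations and not from single clones, so each library holds an unknown mixture of edited and unedited alleles. One library per line with a control guide (sgCtrl) is set beside them, and 2 libraries with guides 2 and 4 against KDM5D (sgKDM5D) in 786-O and in CAKI-2 give the difference between guides to another gene. The question was which transcripts other than KDM5C followed the guide in all lines. Nothing in the labels speaks of separate cultures with the same guide in a line, so the p-values measure the spread between these libraries.

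KDM5C is a histone demethylase that removes methyl groups from di- and tri-methylated lysine 4 of histone H3, a mark of active promoters and enhancers. Its gene lies on the X chromosome, escapes X inactivation and is a tumour suppressor in ccRCC, and KDM5D is its homologue on the Y chromosome. After Cas9 has cut a coding exon, repair leaves small insertions and deletions. Many of these shift the reading frame, and transcripts with early stop codons are often degraded by nonsense-mediated decay, while in-frame changes leave the transcript level as it was. Guides to the same gene differ in how often they cut, in which indels arise and in which other sites they cut.

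Both guides are directed at exon 8 of KDM5C, at sites on the coding strand that overlap over most of their length. The exon lies at chrX:53243871-53244029 (GRCh37, minus strand), spans 159 bases and encodes part of the first PHD finger, the domain that reads unmethylated histone H3. The most similar exon of KDM5D, exon 9, has the same length and lies at chrY:21894470-21894628 (minus strand). The sequences are shown because the exon is what the guides share, and capitals mark the 32 positions at which the exons differ (79.9% identity).
KDM5C exon 8: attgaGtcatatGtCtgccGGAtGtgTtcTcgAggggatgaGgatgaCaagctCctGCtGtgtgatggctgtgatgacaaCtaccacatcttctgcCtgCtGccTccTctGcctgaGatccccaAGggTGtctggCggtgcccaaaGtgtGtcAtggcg
KDM5D exon 9: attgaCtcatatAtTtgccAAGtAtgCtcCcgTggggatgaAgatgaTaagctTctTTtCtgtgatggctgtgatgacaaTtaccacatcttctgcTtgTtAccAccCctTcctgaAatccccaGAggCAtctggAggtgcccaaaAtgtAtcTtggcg

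The 8 libraries held 25.3M to 41.6M counts (M for 10 to the power 6), with near-equal depth for both guides in 786-O (29.3M and 29.5M) and A498 (25.9M and 25.3M) and the largest gap in CAKI-2 (26.9M with guide 4, 41.6M with guide 5). Renal epithelial markers were present throughout, with 9 or 10 of 10 measured markers above 1 CPM in each library (CPM, counts per M counts). PAX8, the lineage transcription factor of renal epithelium, reached 145 to 941 CPM. Of 11 markers of blood, endothelial, liver and other cell types, 0 to 2 passed 1 CPM. Y-linked transcripts summed to at most 0.247 CPM in A498 and 769-P and ranged from 208 to 545 CPM in the libraries of CAKI-2 and 786-O.

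KDM5C (chrX:53205465-53254604) was lower with guide 4 than with guide 5 in 4 of 4 lines, but the gap ranged from large in 786-O to almost nothing in A498. In 786-O the transcript was at 166 CPM with sgCtrl, 43.6 CPM with guide 4 and 78.8 CPM with guide 5, so that 26.2% and 47.4% of the control level were left. In 769-P it was at 239 CPM with sgCtrl, 83.7 CPM with guide 4 and 118 CPM with guide 5 (35.1% and 49.3% left). CAKI-2 had 171 CPM with sgCtrl, 80.6 CPM with guide 4 and 96.1 CPM with guide 5 (47.0% and 56.1% left). The guides were nearly level in A498, at 111 CPM and 114 CPM against 198 CPM with sgCtrl (55.9% and 57.3% left). Across lines the values of the guides overlapped, since guide 5 in 786-O was below guide 4 in the other 3 lines. Every library with either guide was below every sgCtrl library. In bulk RNA, fewer edited cells and more transcript left per edited cell cannot be told apart. The log2 ratio of guide 4 to guide 5 averaged -0.41 ± 0.35 (SD, n = 4 lines). In the edgeR quasi-likelihood fit with cell line as a block the log2 fold change was -0.44 (SE 0.144), and -0.27 without 786-O. That guide 4 leaves less KDM5C transcript was the reason for the comparison, so these values are a description with no test.

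**Figure D1:**
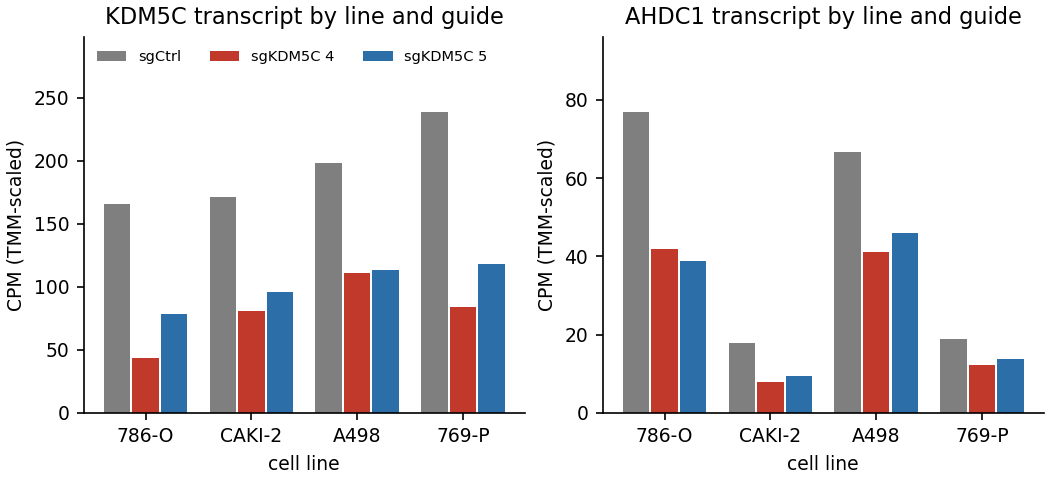
Transcript level in CPM of KDM5C (left) and AHDC1 (right) in each cell line, 1 library per bar, with the control guide in grey, sgKDM5C guide 4 in red and guide 5 in blue. KDM5C is lowest with guide 4 in each line, by a wide margin in 786-O (43.6 against 78.8 CPM) and by little in A498 (111 against 114 CPM), while AHDC1 is below the control with both guides in every line.

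The other KDM5 genes showed no shared difference between the guides. KDM5A, the first-described member of the family, was at 66.5, 76.8, 36.7 and 71.2 CPM with guide 4 in the lines 786-O and CAKI-2 and then A498 and 769-P, and at 56.9, 83.7, 38.9 and 77.0 CPM with guide 5. It was thus higher with guide 4 in 1 line and lower in 3 (log2 fold change -0.06, SE 0.118, edgeR adjusted p = 0.965). KDM5B was higher with guide 4 in 3 lines and lower in A498, where it was at 99.4 against 117 CPM (log2 fold change 0.05, SE 0.126, adjusted p = 0.97). KDM5D was at 32.5 against 42.2 CPM in 786-O and 22.7 against 17.6 CPM in CAKI-2, opposite signs in the lines that express it, and at 0 or 1 count in A498 and 769-P. The signs of these small values changed with the settings of the fit.

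No gene passed the test for following the guide. Of 18205 genes tested, 0 were called between guide 4 and guide 5 by edgeR at an adjusted p under 0.05 (0% of genes, smallest adjusted p 0.47). At an unadjusted p under 0.05 there were 703 genes (3.86%), of which 351 were higher and 352 lower with guide 4 (1.93% each way). The DESeq2 Wald test also called 0 genes, with 578 at an unadjusted p under 0.05. With no filter on low counts edgeR called 56 genes. The same sign of the difference in 4 of 4 lines was found for 2141 genes (11.8%), with 1111 higher with guide 4 (6.1%) and 1030 lower (5.66%). Both criteria, the same sign in 4 lines and an unadjusted p under 0.05, were met by 417 genes (2.29%).

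The distance of each guide from the control is set beside this, from a fit of 12 libraries in which both comparisons share the 4 sgCtrl libraries. With guide 4, 7 of 19364 genes were called (0.0361%), 5 of them higher (0.0258%) and 2 lower (0.0103%), and 1965 (10.1%) had an unadjusted p under 0.05. The 7 calls became 1 with GC trends taken out, 0 without 769-P and 40 with DESeq2. With guide 5, 0 genes were called by edgeR (0%, smallest adjusted p 0.0697), 493 (2.55%) had an unadjusted p under 0.05, and DESeq2 called 2. KDM5C fell by 1.34 on the log2 scale with guide 4 (SE 0.141, adjusted p = 0.00206), and its value with guide 5 was -0.93 (SE 0.139, adjusted p = 0.0697). AHDC1, which encodes an AT-hook protein bound to DNA, fell by 0.86 with guide 4 (SE 0.121, adjusted p = 0.0262) and its value with guide 5 was -0.73 (SE 0.121, adjusted p = 0.152). AHDC1 was at 41.8, 7.81, 41.1 and 12.2 CPM with guide 4 in the same order of lines, and at 38.7, 9.31, 45.9 and 13.8 CPM with guide 5. Both guides left it below the 76.9, 17.9, 66.7 and 18.9 CPM of sgCtrl in every line, with 43.5% to 64.6% of the control left with guide 4 and 50.3% to 72.9% with guide 5. Between the guides its log2 fold change was -0.15 (SE 0.132, adjusted p = 0.936), and 0.01 with GC trends taken out of the counts.

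The other 5 genes called with guide 4 rose against sgCtrl. ITIH5, an inter-alpha-trypsin inhibitor heavy chain of the extracellular matrix, rose by 1.59 on the log2 scale with guide 4 (adjusted p = 0.0425) and had a value of 1.05 with guide 5 (adjusted p = 1). Its levels in 786-O were 103 CPM with guide 4, 48.6 CPM with guide 5 and 21.4 CPM with sgCtrl, but in A498 guide 5 was the higher (405 against 323 CPM, sgCtrl 221 CPM). DYNAP, a transmembrane protein gene, was near 0 in every sgCtrl library and reached 1.69 and 0.960 CPM with guide 4 in A498 and 769-P, and 2.36 and 0.576 CPM with guide 5. DYNAP therefore did not separate the guides. MYH13, a myosin heavy chain of eye muscle, was expressed in 786-O alone (61.6 CPM with guide 4, 23.0 CPM with guide 5, 10.6 CPM with sgCtrl) and was at 0 to 2 counts in the other lines, and RNU6-1, a spliceosomal U6 RNA, reached at most 5.33 CPM in these 12 libraries. LINC02274, the remaining gene, is described with the genes that differed between guides. A larger number of calls with guide 4 than with guide 5 is not a test of their difference, which is the comparison that called 0 genes.

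Within single lines the difference between the guides was wide in 786-O and 769-P and narrow in CAKI-2 and A498, with no test possible on 1 library per guide. Among genes averaging 100 counts or more over the pair, 423 of 11017 (3.84%) differed more than 2-fold in 786-O and 231 of 10836 (2.13%) in 769-P, against 57 of 12418 (0.459%) in CAKI-2 and 7 of 11680 (0.0599%) in A498. The interquartile range of the log2 ratios was 0.525 in 769-P, 0.494 in 786-O, 0.296 in A498 and 0.270 in CAKI-2. The lines were thus ordered differently by the share past 2-fold, led by 786-O, and by the interquartile range, led by 769-P. Guides 2 and 4 against KDM5D differed more than 2-fold in 116 of 11008 genes in 786-O (1.05%, interquartile range 0.250) and 29 of 11850 in CAKI-2 (0.245%, interquartile range 0.234). In CAKI-2 the KDM5C guides therefore differed about as far as the KDM5D guides by interquartile range, and in 786-O further.

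**Figure D2:**
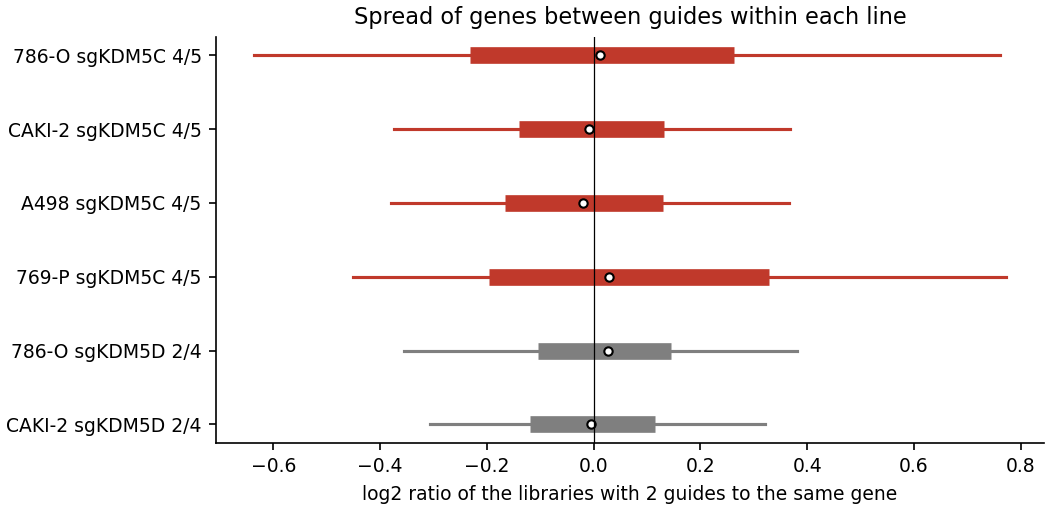
Spread over genes of the log2 ratio between libraries with different guides to the same gene, 1 row per line, for genes averaging 100 counts or more. Thick bars span the quartiles, thin lines the 5th to 95th percentile and white points the median, with sgKDM5C guide 4 over guide 5 in red and sgKDM5D guide 2 over guide 4 in grey. The bars are widest in 786-O and 769-P.

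The differences between the guides were weakly related from line to line. Over 12153 genes, Pearson's r between the log2 ratios of 2 lines ran from -0.22 (A498 and 769-P) to 0.289 (CAKI-2 and 769-P), and it was 0.014 for 786-O and CAKI-2. This is a correlation across genes, which are not independent, and each ratio carries the noise of its own pair of libraries. The log2 ratio also varied with the GC content of the gene, in directions that differed by line. Spearman's rho over 11996 genes was -0.218 in 786-O, -0.434 in CAKI-2 and -0.659 in 769-P, and 0.309 in A498. In 769-P the median log2 ratio went from 0.57 in the tenth of genes poorest in GC to -0.25 in the richest, while in A498 it went from -0.13 to 0.08. With GC trends taken out library by library, the r between lines lay between -0.0936 and 0.0993.

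**Figure D3:**
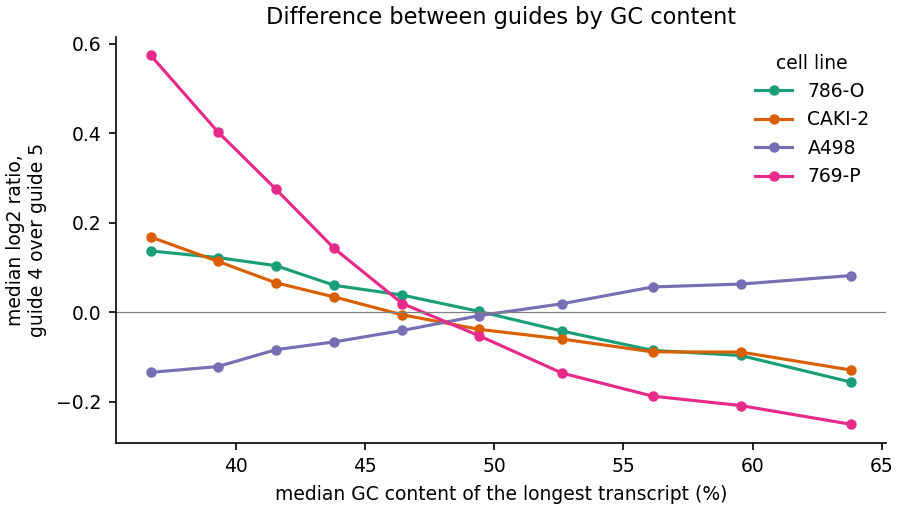
Median log2 ratio of guide 4 over guide 5 in 10 groups of genes ordered by the GC content of the longest transcript, 1 curve per line. The curves of 769-P (0.57 to -0.25), CAKI-2 and 786-O go down and that of A498 (-0.13 to 0.08) goes up.

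The 12 genes with the smallest unadjusted p among those higher with guide 4 in 4 of 4 lines are named here as not called. EDN1 (chr6:12290594-12297427), the vasoconstrictor peptide endothelin 1, was at 39.5, 2.86, 16.7 and 2.56 CPM with guide 4 in that order of lines, which is kept from here on. With guide 5 it was at 13.5, 1.77, 9.47 and 0.576 CPM, and with sgCtrl at 14.6, 1.97, 8.85 and 0.206 CPM. Guide 4 was thus the highest of the 3 in every line, and guide 5 stood near the control in 786-O, CAKI-2 and A498 (log2 fold change between guides 1.19, SE 0.222, unadjusted p = 0.000164, edgeR adjusted p = 0.748). CLEC4E (chr12:8685901-8693501), a C-type lectin receptor best known from macrophages, was at 4.82, 59.5, 0.563 and 6.37 CPM with guide 4. Its levels were 1.87, 43.6, 0.266 and 1.81 CPM with guide 5 and 2.71, 34.9, 0.426 and 1.07 CPM with sgCtrl, so that guide 4 was again highest in each line (log2 fold change 1.08, SE 0.23, adjusted p = 0.936, and 0.55 without the block for cell line).

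MMP1 and MMP13 encode collagenases of the matrix metalloproteinase cluster on chromosome 11. MMP1 (chr11:102660132-102668891) was at 2.56, 0.523, 0.0375 and 59.5 CPM with guide 4 and at 1.33, 0.322, 0 and 23.1 CPM with guide 5. The A498 values are 1 count against 0, and the gene overlaps WTAPP1 on the other strand. MMP13 (chr11:102813724-102826461) was measurable in 786-O only, at 14.8 CPM with guide 4, 3.99 CPM with guide 5 and 12.4 CPM with sgCtrl, and lay at or below 0.30 CPM elsewhere. For MMP1 the fitted log2 fold change was 1.08 (SE 0.233) and for MMP13 1.72 (SE 0.442), both with an adjusted p of 0.936. MMP1 was at 1.2, 0.492, 0.0851 and 14.3 CPM with sgCtrl, below guide 4 in 3 lines, whereas for MMP13 in 786-O guide 4 was the nearer to the control.

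DNM3 (chr1:171787027-172387606), a dynamin GTPase, was at 0.513, 4.29, 2.74 and 4.80 CPM with guide 4 and at 0.108, 1.82, 1.79 and 1.85 CPM with guide 5 (log2 fold change 1.16, SE 0.268). NES, the intermediate filament protein nestin, had the largest fitted value of the 12 (2.27, SE 0.529), and 1.09 without 786-O. In that line it was at 8.75 CPM with guide 4, 0.611 CPM with guide 5 and 1.43 CPM with sgCtrl, and the sgCtrl and sgKDM5C libraries of the other lines reached at most 1.23 CPM. HOOK1 (chr1:60280458-60341994), which links cargo to microtubules, showed the most even difference over lines: 17.6, 54.6, 4.84 and 58.1 CPM with guide 4 against 11.9, 40.1, 3.04 and 39.4 CPM with guide 5. Its mean log2 ratio was 0.56 ± 0.09 (SD, n = 4), with guide 4 above sgCtrl (12.3, 46.6, 4.26 and 42.4 CPM) and guide 5 below it in all lines. These ratios are before removal of the GC trend. The GC content of HOOK1 is 35.9%, and the tenth of genes poorest in GC had a median ratio of 0.574 in 769-P and -0.134 in A498. HOOK1 itself was at 0.559 in 769-P, about that median, and at 0.658 in A498, well above it. Its even difference is therefore shown only before removal, and its ratios per line after removal were not tested.

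Of the long non-coding RNAs, LINC02274 (chr14:74289262-74296838) was the one also called against the control. It was at 17.3, 16, 5.25 and 40.6 CPM with guide 4, 6.75, 12.5, 3.42 and 24.4 CPM with guide 5 and 5.42, 9.45, 2.51 and 10.6 CPM with sgCtrl. The order guide 4, guide 5, control held in 4 of 4 lines. It rose by 1.37 with guide 4 against sgCtrl (SE 0.194, edgeR adjusted p = 0.0262), had a value of 0.61 with guide 5 (adjusted p = 1), and differed between guides by 0.73 (SE 0.178, adjusted p = 0.936). NEAT1 (chr11:65190245-65213011), the scaffold RNA of nuclear paraspeckles, was at 98.7, 92.4, 722 and 475 CPM with guide 4 and 65.3, 64.8, 578 and 358 CPM with guide 5. Its mean log2 ratio was 0.46 ± 0.12 (SD, n = 4), and guide 5 was below sgCtrl (81.8, 90.1 and 848 CPM) in 3 lines and above it in 769-P (309 CPM).

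The remaining 3 were ASPM, NDC80 and DLGAP5. ASPM (chr1:197053251-197115824), a spindle pole protein, was at 180, 41.7, 18.9 and 224 CPM with guide 4 and at 124, 33.5, 15.3 and 102 CPM with guide 5 (log2 fold change 0.55, SE 0.144). NDC80, an outer kinetochore subunit, was at 67.6, 23.3, 8.93 and 49.2 CPM against 53.8, 17.3, 6.16 and 29.4 CPM (0.47, SE 0.13). DLGAP5, a regulator of spindle microtubules, was at 70.2, 34.6, 6.04 and 64.0 CPM against 60.1, 24.2, 4.34 and 39.0 CPM (0.45, SE 0.13). All 3 were above sgCtrl with guide 4 in every line, and in A498, where sgCtrl was at 10.5, 3.70 and 2.43 CPM, they were above it with both guides.

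The 12 genes named among those lower with guide 4 differed most in 786-O, which held the largest log2 ratio for 10 of them. FTH1 (chr11:61727190-61735106), the ferritin heavy chain, was the most abundant, at 151, 860, 552 and 296 CPM with guide 4 and 198, 2097, 599 and 654 CPM with guide 5, against 163, 938, 724 and 629 CPM with sgCtrl. The guides differed most in CAKI-2 and 769-P and least in A498 (log2 fold change -0.77, SE 0.185, unadjusted p = 0.00131, adjusted p = 0.936). FTH1 overlaps BEST1 on the other strand and has processed pseudogenes that can share its reads, so its level is uncertain. ANKRD33B (chr5:10564182-10657928), an ankyrin repeat gene, was at 7.31, 13.4, 5.67 and 7.79 CPM with guide 4 and 14.1, 21.9, 7.80 and 12.7 CPM with guide 5. Its sgCtrl levels of 11.6, 17.6 and 11.8 CPM in 786-O, CAKI-2 and 769-P fell between the guides, and its mean log2 ratio of -0.70 ± 0.20 (SD, n = 4) was among the more even.

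FGFR2 (chr10:123237846-123357972), a fibroblast growth factor receptor, was at 3.38, 26.5, 7.28 and 0.533 CPM with guide 4 and 12, 39.5, 8.44 and 0.864 CPM with guide 5. Against sgCtrl (6.54, 26.0, 5.15 and 0.371 CPM) guide 5 was higher in every line and guide 4 in 3. TRPM2, a calcium-permeable channel, had the largest fitted value (-2.67, SE 0.713), from 0.205 CPM with guide 4 and 5.35 CPM with guide 5 in 786-O (sgCtrl 4.55 CPM), and stayed below 1 CPM in the sgCtrl and sgKDM5C libraries of the other lines. PDF, a mitochondrial peptide deformylase whose gene lies within COG8 on the same strand, was at 0.649, 1.67, 1.16 and 0.782 CPM against 1.40, 5.04, 1.67 and 1.64 CPM (log2 fold change -1.13, SE 0.269). These genes are low, so their ratios carry more counting error than those of FTH1.

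DOT1L (chr19:2163932-2232577), the methyltransferase of lysine 79 of histone H3, was at 56.6, 33.6, 41.5 and 53.6 CPM with guide 4 and 129, 36.3, 48.2 and 76.9 CPM with guide 5. In 786-O guide 5 was above sgCtrl (103 CPM) and guide 4 below it. In 769-P guide 5 was near sgCtrl (80.1 CPM) and guide 4 below it. In CAKI-2 and A498 guide 4 stood at the control level (33.8 and 41.0 CPM). SBNO2, a transcriptional co-regulator of the interleukin 10 response, was at 119, 82.2, 159 and 105 CPM against 234, 101, 166 and 139 CPM, and RRAD, a small GTPase that inhibits calcium channels, at 82.8, 35.2, 306 and 74.7 CPM against 171, 58.3, 330 and 77.9 CPM. DOT1L overlaps AP3D1 on the other strand. The other 4 were SIPA1L3, a GTPase-activating protein, CDIP1, a pro-apoptotic p53 target, CCDC86, a nucleolar protein, and RHOF, a GTPase of filopodia. Their log2 fold changes were -0.39, -0.37, -0.57 and -0.53. Without 786-O the fitted value was -0.46 for FGFR2, -0.30 for DOT1L, -0.31 for RRAD, -0.26 for SBNO2 and -0.31 for CCDC86, and that of TRPM2 was -4.09 without 769-P. With the GC trend removed SBNO2 was at -0.28. The adjusted p of the 12 was 0.936 throughout.

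Of the 12 genes higher with guide 4, 11 had a GC content below the median of all genes tested (48.4%), and of the 12 lower with guide 4, 11 had one above it. After removal of the GC trend all 24 kept the direction of the fitted value, with log2 fold changes of 0.31 to 2.42 and of -2.46 to -0.25. The unadjusted p in edgeR was under 0.05 for 12 of 12 each way, with 0 calls. Since the 24 were chosen by sign and p in these same data, this is a description and no test. Their signs in single lines after removal are not given. EDN1 hardly moved (1.18), while HOOK1 went to 0.32, LINC02274 to 0.54 and SIPA1L3 to -0.25. The part of GC content in the values before removal was not tested further.

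**Figure D4:**
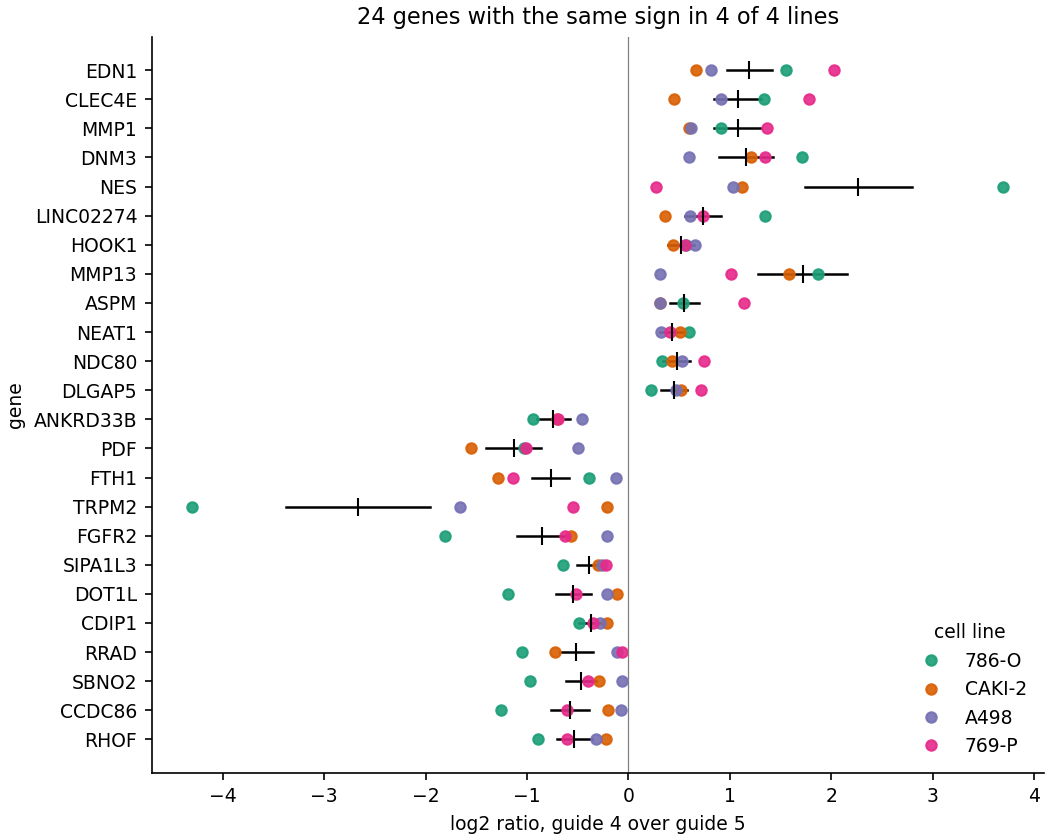
Log2 ratio of guide 4 over guide 5 for 24 genes with the same sign in 4 of 4 lines, 1 coloured point per line, with the fitted log2 fold change as a black tick and its SE as a black line. EDN1, HOOK1 and NEAT1 lie to the right in all lines, and NES (fitted 2.27) and TRPM2 (fitted -2.67) are furthest out in 786-O. None of the 24 was called.

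Of the gene lists, the mitochondrially encoded transcripts held the largest share of members with the same sign in 4 of 4 lines. Of the 13 protein genes of the mitochondrial genome, which encode subunits of the respiratory chain and ATP synthase, 0 were called, 10 were higher with guide 4 in 4 of 4 lines (all genes tested 6.1%) and 0 were lower, with a median log2 fold change of 0.24 against -0.00402 for all genes. The median was 0.37, 0.21, 0.22 and 0.32 in the 4 lines. MT-CO1, a cytochrome c oxidase subunit, was at 7501, 16246, 24227 and 17356 CPM with guide 4 and 5049, 14122, 18808 and 13941 CPM with guide 5, against 7423, 15908, 28211 and 14630 CPM with sgCtrl (log2 fold change between guides 0.33, SE 0.13, unadjusted p = 0.0205). MT-CO2 (0.31, SE 0.12) and MT-ATP6 (0.29, SE 0.116) were also higher with guide 4 in every line, whereas MT-ND1, MT-ND2 and MT-ND3 were so in 3 lines. The medians against sgCtrl were 0.01 for guide 4 and -0.26 for guide 5, so the median of guide 5 lay the further from the control. The share of counts from the mitochondrial genome was 3.14%, 6.18%, 10.5% and 5.99% with guide 4 and 2.31%, 5.29%, 8.94% and 4.84% with guide 5. These 13 genes are transcribed as long precursors and are not independent of each other. With the GC trend removed, 8 of 13 were higher in 4 of 4 lines and the median was 0.22. For nuclear oxidative phosphorylation, 86 of 206 symbols that matched the pattern were tested, of which 81 are protein-coding genes and 5 are pseudogenes. Of these 4 were higher and 2 lower in all lines, all protein-coding, with a median of -0.04. NDUFA5, a subunit of complex I, was the one of them higher in all lines at an unadjusted p under 0.05 (log2 fold change 0.35, SE 0.142, 0.16 with the GC trend removed and 0.20 without 769-P). At the same level 2 members had a negative value, NDUFS7 (-0.35, SE 0.153) and NDUFS8 (-0.26, SE 0.119), also subunits of complex I. Both were lower with guide 4 in 3 lines and higher in A498.

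Of 54 genes of the G2 and M phases, 13 were higher with guide 4 in 4 of 4 lines (all genes 6.1%) and 2 were lower (all genes 5.66%), 44 had a positive fitted value, and the median was 0.10. At an unadjusted p under 0.05, 9 were higher and 0 lower (all genes 1.93% each way), and 0 were called. By line the median was 0.30 in A498, 0.18 in 769-P, 0.14 in CAKI-2 and -0.06 in 786-O. Next to NDC80 and DLGAP5 these included HMMR, a spindle-binding hyaluronan receptor, at 103, 50.1, 6.61 and 100.5 CPM with guide 4 and 89.2, 38.9, 5.33 and 57.7 CPM with guide 5, and TOP2A, the topoisomerase that untangles chromosomes (log2 fold change 0.35, SE 0.118). MKI67, the proliferation antigen, was higher with guide 4 in 2 lines and lower in 2 (-0.06, SE 0.153). The summed level of the list was below guide 5 in 786-O (11384 against 12963 CPM) and above it in CAKI-2 (4495 against 4182 CPM), A498 (2276 against 1969 CPM) and 769-P (8865 against 7828 CPM). Their median GC content was 43.0% and that of all genes 48.4%, and with the GC trend removed 10 of 54 were higher in all lines (all genes 6.97%) and the median was 0.09. Of 42 S-phase genes, 8 were higher in all lines and 1 lower (median 0.06, all genes 6.1% and 5.66%), which became 2 and 3 with the GC trend removed (all genes 6.97% and 5.03%). CENPU, a kinetochore protein, was at 82.5, 38.8, 4.17 and 52.2 CPM with guide 4 and 64.4, 30.6, 1.86 and 39.0 CPM with guide 5, and HELLS, a chromatin remodeller, was higher by 0.37 (SE 0.148). With the GC trend removed CENPU was at 0.30, HELLS at 0.26 and HMMR at 0.22.

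**Figure D5:**
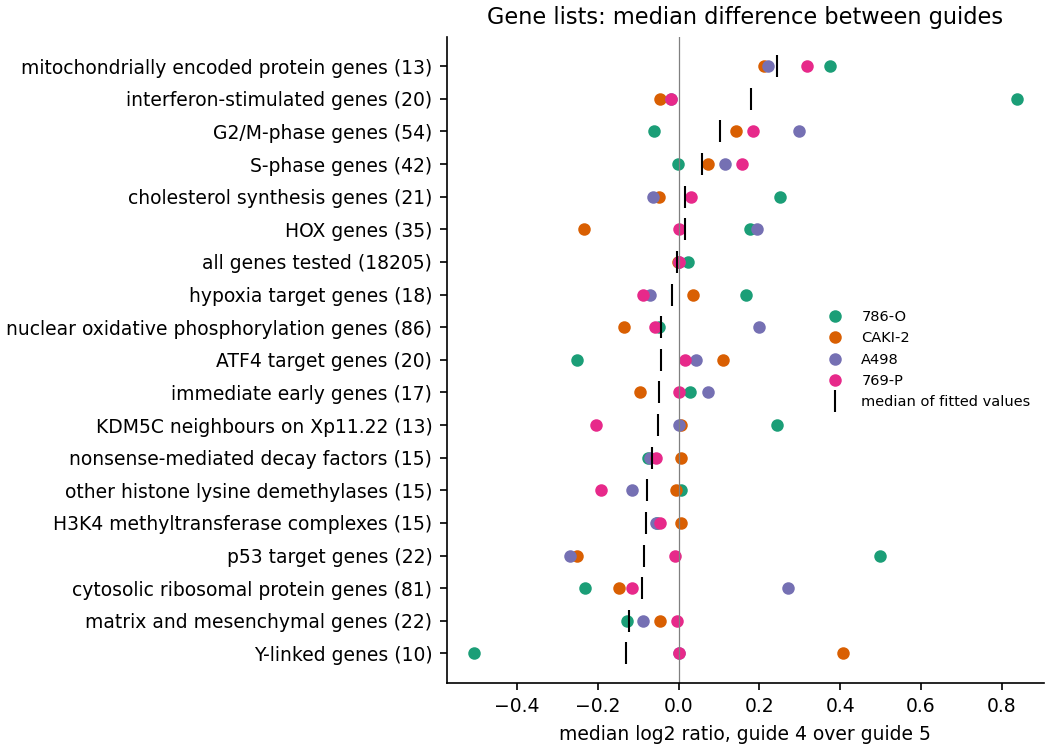
Median log2 ratio of guide 4 over guide 5 over the tested members of each gene list (their number in brackets), 1 coloured point per line, with the median of the fitted values as a black tick. The 4 points of the mitochondrially encoded genes lie between 0.21 and 0.37, those of all genes tested lie between -0.00156 and 0.0243, and the interferon list has 1 point, 786-O, at 0.84.

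In the lists closer to the function of KDM5C 0 genes were called. Their counts in 4 of 4 lines are read against 6.1% higher and 5.66% lower over all genes tested. The H3K4 methyltransferase complexes methylate the same residue of histone H3 that KDM5C demethylates. Of 15 of their subunits, 0 were higher and 1 was lower (6.67%) with guide 4 in 4 of 4 lines. The one was HCFC1, a scaffold of these complexes (-0.29, SE 0.13), which went to -0.15 with the GC trend removed and -0.17 without 786-O. Its log2 ratios were -0.53 in 786-O and -0.42 in 769-P, but only -0.007 in CAKI-2 and -0.055 in A498. Of 15 other histone lysine demethylases 0 were higher and 2 lower (13.3%), and of 13 tested neighbours of KDM5C on Xp11.22 0 were higher and 1 was lower. GPR173, an orphan receptor gene among these neighbours, had a fitted value of 1.21 (SE 0.363), from 6.36 against 2.05 CPM in 786-O and 2.83 against 1.57 CPM in CAKI-2, and was at 0 in A498 and 769-P with both guides. Of 15 factors of nonsense-mediated decay 0 were higher and 2 lower (13.3%), with SMG5, which recruits the decay enzymes, at -0.27 (SE 0.121) and at -0.16 with the GC trend removed. With 13 to 15 members tested, these shares rest on 1 or 2 genes. Only 3 of 20 germline genes, a group that KDM5C represses in other tissues, were expressed enough to be tested, and 0 of them had the same sign in all lines.

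The same shares over all genes, 6.1% and 5.66%, apply to the stress and signalling lists. Of 22 p53 target genes, which respond to DNA damage, 0 were higher and 2 lower in all lines, with AEN, a nuclease induced by p53, at 65.0, 82.1, 149 and 60.1 CPM with guide 4 and 94.8, 83.7, 181 and 84.1 CPM with guide 5 (-0.36, SE 0.126). Of 20 targets of the stress factor ATF4, 1 was higher and 0 lower. This was ASNS, asparagine synthetase, at 57.1, 175, 420 and 64.9 CPM with guide 4 against 40.4, 128, 389 and 45.2 CPM with guide 5 (0.36, SE 0.117, and 0.24 without the block for cell line), with guide 4 above sgCtrl (36.4, 103, 385 and 58.6 CPM) in every line. SLC7A11, the cystine transporter, was at 33.4, 319, 140 and 40.5 CPM against 26.4, 240, 140 and 27.1 CPM (0.30, SE 0.123), and 0.13 with the GC trend removed. Over the 20 ATF4 targets the median log2 fold change was -0.04, and 9 had a positive fitted value. Of 21 cholesterol genes 0 were higher and 1, CYP51A1, was lower (-0.32, SE 0.193), and the median over the list was 0.02. The sterol oxidase MSMO1 (0.52, SE 0.191) and the sterol carrier STARD4 (0.50, SE 0.195) were higher in 3 lines and lower in A498. Their values without 769-P were 0.32 and 0.28. Without A498 MSMO1 was at 0.81, and with the GC trend removed STARD4 was at 0.32. Of 18 hypoxia target genes, which are driven in ccRCC by loss of VHL, 0 were higher and 0 lower, but with the GC trend removed 1 was higher and 4 were lower (22.2%, all genes 5.03%), with a median of -0.000817. Of 17 immediate early genes 0 followed the guide either way, of 10 Y-linked genes 0, of 35 HOX genes 2 were higher and 0 lower, and of 81 ribosomal protein genes 1 was higher and 0 lower. The Y-linked count was nearly fixed in advance, since A498 and 769-P hold almost no Y-linked reads and a tie has no sign. Of 22 matrix and mesenchymal genes 0 were higher and 1 was lower. The gelatinase MMP2 had a fitted value of 0.99 (SE 0.244, edgeR unadjusted p = 0.00157, adjusted p = 0.936) and was higher with guide 4 in 3 lines. It was at 249.9 against 143 CPM in 786-O, 1.81 against 0.493 CPM in 769-P and 0.209 against 0.0921 CPM in CAKI-2. In A498 it was lower with guide 4, at 0 against 1 count.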

How the data were processed

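Bulk RNA-seq counts per gene were used as deposited: the authors extracted total RNA, made stranded TruSeq libraries and counted reads per Ensembl gene, with no normalization. The submitters' processing notes name Trimmomatic 0.38, STAR 2.5.2b and the build GRCh37. The counting tool, its strand setting and the annotation release are not given in the sources used here, so genes that overlap on opposite strands may share reads. The header names 16 libraries for 17 columns, which were matched by shifting the names by 1 column. Of 57773 gene IDs, 55538 were matched to symbols and GRCh37 coordinates (GENCODE 44 lifted to GRCh37), and exon sequences were read from the GRCh37 genome.

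Genes summing to 60 counts or more over the fitted libraries were tested, by the quasi-likelihood F-test of edgeR 4.0.16 (R 4.3.3) with TMM normalization and Benjamini-Hochberg adjustment over all genes, called at an adjusted p under 0.05. Guide 4 was compared with guide 5 in the 8 sgKDM5C libraries with cell line as a block (3 residual degrees of freedom, common dispersion 0.027, prior degrees of freedom 9.16), and each guide with sgCtrl in 12 libraries (6 residual degrees of freedom). The pairing comes from the cell line, and libraries of the same line deviated together (r of 0.938 to 0.977 between the 2 guides). The 2 libraries of a line differed beyond sampling noise (chi-square per gene of 16.8 to 69). CPM were scaled by TMM factors over 16 libraries, and a prior count of 2 entered the log2 ratios within a line. The SE was taken as log2 fold change over the root of F. GC trends were removed per library by lowess (span 0.3, genes averaging 50 counts or more). In the sign counts after this removal, a line with 0 counts for both guides took its sign from the trend. Before removal such a tie had no sign.

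Named genes were up to 12 per direction with a mean of at least 20 counts and the same sign in 4 of 4 lines, called genes first and then by unadjusted p, KDM5A, KDM5B, KDM5C, KDM5D and AHDC1, and up to 3 members per list by unadjusted p. Of the last, those with an unadjusted p under 0.05 are described, without ADM, EGR2 and MYC. NDUFS7 and NDUFS8 were not followed through the alternatives. Genes called against the control were named after their values were seen. So were TOP2A, MKI67, OAS1, OAS2, OAS3, OASL, ISG15, BST2, IFI27, IFI6, RPS4Y1, USP9Y, CYP51A1, MT-ND1, MT-ND2 and MT-ND3. The S and G2/M lists came from Seurat 5.3.0 and the others from general knowledge and symbol patterns. The comparison, the members and the lists were chosen with earlier results of these data known. Alternatives were RLE factors, DESeq2 1.42.0, filterByExpr, no filter beyond 1 count, no block, 12 or 16 libraries in the fit, removal of GC trends, and leaving out each line. Signs and correlations with GC trends removed were chosen after seeing the data. The fits were tested on simulated data with known changes. No library was left out, and 1 gene is not reported here.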

Additional observations from a re-analysis of the deposited data

Results flagged for a closer look

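For 7 of the 67 genes and lists looked at, the log2 ratio of guide 4 over guide 5 in 1 line stood far from that in the other 3. The rule flags about 1 in 20 sets of independent values with equal spread. Here items share members, many genes were chosen on these same ratios, and the lines differ in spread. The 7 of 67 can therefore not be set against that rate. SIPA1L3 was further down in 786-O (-0.644) than in the other lines, and KDM5A was up there (0.226) while it was slightly down elsewhere. ASNS had its smallest ratio in A498 (0.111), and CENPU its largest there (1.13), on low levels of 4.17 against 1.86 CPM. Of the lists, the interferon-stimulated genes had a median of 0.837 in 786-O against values near 0 in the other lines. The medians of the KDM5 family (0.0379) and of the H3K4 methyltransferase complexes (0.00696) were above 0 in CAKI-2 alone, by amounts too small to weigh.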

How the results depend on the processing

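Between the guides 0 genes were called under all alternatives but one. With no filter beyond 1 count, 56 were called (44 higher and 12 lower), at least 15 of the genes named here among them. The number at an unadjusted p under 0.05 went from 703 to 2 with no replicate block and to 1563 with all 16 libraries, and to 400 without 769-P and 1445 without A498. The pairing by replicate block changed no call between the guides, and the KDM5C value without it was -0.38. The KDM5C value ran from -0.54 (without A498) to -0.27 (without 786-O) over 12 alternatives.

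For guide 4 against sgCtrl, where 7 genes were called, the count was 40 with DESeq2, 4 with filterByExpr, 322 with no filter, 0 with no replicate block, 4 with all 16 libraries and 1 with the GC trend removed. Leaving out 1 line gave 0 (without 769-P) to 6 (without CAKI-2). For guide 5 it was 2 with DESeq2, 47 with no filter, 1 with all 16 libraries, and 0 to 2 with 1 line left out (2 without 786-O). With genes down to a mean of 20 counts, the share past 2-fold became 6.43% in 786-O, 3.58% in 769-P, 1.38% in CAKI-2 and 0.626% in A498, and for the KDM5D guides 2.39% and 0.897%. The cause of these moves was not tested.

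Changes of sign were limited to genes with values near 0. KDM5A was at -0.119 (without 786-O) to 0.00606 (without CAKI-2) with 1 line left out. KDM5B was at -0.0505 with no replicate block and at -0.0114 (without 786-O) to 0.186 (without A498) with 1 line left out. KDM5D was at 0.00196 with RLE, 0.0121 with DESeq2, 0.00849 with 16 libraries, 0.0128 with 12, 0.00279 with the GC trend removed and -0.299 (without CAKI-2) to 0.385 (without 786-O) with 1 line left out. AHDC1 was at 0.0122 with the GC trend removed. With 1 library per guide and line, depth limits the low genes most, and 3 residual degrees of freedom limit the whole comparison.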

Other observations

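The 786-O pair held differences between the guides that were smaller, absent or reversed in the other lines, which was not tested. Of 20 interferon-stimulated genes 0 were called and 3 were higher with guide 4 in 4 of 4 lines (15%, all genes 6.1%), with median log2 ratios of 0.84 in 786-O and of -0.05, -0.02 and -0.02 in the other 3 lines. IFI44L, an interferon-induced gene, was at 14.7 against 2.44 CPM in 786-O (sgCtrl 4.17 CPM) and at 1.78 against 1.75 CPM in CAKI-2. It was also higher with guide 4 in A498 (20.9 against 16.2 CPM) and 769-P (0.356 against 0.206 CPM), with a fitted log2 fold change of 0.95 (SE 0.372, edgeR adjusted p = 0.936) that was 0.27 without 786-O. Among the largest of the list in 786-O, the antiviral enzymes OAS2 and OAS1 had log2 ratios of 2.15 and 1.90, and IFI27 and IFI6 of 2.46 and 2.25. Other members were near 0 in that line (ISG15 0.124, OAS3 0.117, BST2 0.031 and OASL -0.00278). In 769-P OAS2 was at 0.669, OAS1 at -0.715, IFI27 at -1.15 and IFI6 at -0.079. A test within the line is not possible on 1 library per guide.

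In the same line THBS1, the matrix protein thrombospondin 1, was at 217 CPM with guide 4, 751 CPM with guide 5 and 599 CPM with sgCtrl, while in A498 it was at 15.1 against 14 CPM. Its fitted log2 fold change over the 4 lines was -0.55, and -0.11 without 786-O. Summed Y-linked transcripts in 786-O were at 340.2 CPM with guide 4 and 545 CPM with guide 5, and at 587, 555 and 584 CPM with sgCtrl and with guides 2 and 4 against KDM5D. RPS4Y1, a ribosomal protein gene on the Y chromosome, was at 177 CPM with guide 4 and 315 CPM with guide 5. The Y-linked genes did not differ evenly in 786-O. Their median log2 ratio there was -0.507 (10 genes), but USP9Y was level between the guides (21.6 against 20.8 CPM). In CAKI-2 the Y-linked sum was higher with guide 4 (273 against 208 CPM). The median of 22 p53 target genes was 0.50 in 786-O and was below 0 in the other lines, at -0.25, -0.27 and -0.01. With the GC trend removed, 6 of 35 HOX genes were higher with guide 4 in 4 of 4 lines (17.1%, all genes 6.97%). After this removal a tie at 0 counts takes its sign from the trend, so this count is not comparable with the one before removal. HOXB8, at 0 counts with both guides in 769-P, is a HOX gene with such a tie.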
